A study of Saccharomyces cerevisiae with 16 samples.

Results

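The central domain of 18S rRNA is the stretch of the small subunit rRNA that folds into the platform of the subunit. It was taken as positions 1324 to 1842 of the deposited pre-rRNA profiles, counted from 1 at the 5′ end, which are nucleotides 624 to 1142 of 18S. These were 519 of the 6647 nucleotides of the profile, 134 of them A, 91 C, 136 G and 158 U. The readout applies to its 225 A and C sites, of 1236 in the stretch from the 5′ end of the pre-rRNA to the A2 cleavage site, called the SSU part here. Sites below are written as base and 18S nucleotide (A1139), and 700 added to the number gives the profile position. No genome build was named by the sources, so positions are those of the pre-rRNA and not of the genome.

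The RNA came from small subunit (SSU) processomes of Saccharomyces cerevisiae, purified through a tandem affinity (TAP) tag on Utp10. The 4 groups were Has1-H375A treated with dimethyl sulfate (DMS), Has1-H375A untreated, Has1-WT treated with DMS and Has1-WT untreated, with 4 libraries each, which the submitters called biological replicates. All groups shared the tagged Utp10 and growth in YPD, a rich medium, until mid-log phase, and the DMS treatment was 1% at 30 °C for 5 min. Neither the strain background nor whether the altered Has1 replaced the cell's own copy is given in the sources used here.

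As background, the SSU processome is the nucleolar particle in which the precursor of 18S is folded and cut, and Has1 is a DEAD-box RNA helicase that acts in it. The central domain holds the loops of helices 23 and 24, which line the decoding side of the platform in the mature subunit, and helix 27, a hairpin that packs against the decoding centre. Its last nucleotides form 1 strand of the central pseudoknot, whose other strand lies at the 5′ end of 18S and which joins the domains of the mature subunit. DMS adds a methyl group to the pairing face of A and C where that face is free, and in DMS-MaPseq the reverse transcriptase puts a wrong base into the cDNA opposite it. The mutation rate, given here in percent of reads, is the number of mutated reads over the effective depth, which is the number of reads of sufficient quality at the site. A low rate can mean a paired base or one covered by protein, and the readout does not tell these apart.

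The stretches that the results turn on are printed 5′ to 3′ from the deposited profile, with capitals at the A and C sites that were higher with DMS than without in both genotypes (edgeR, adjusted p under 0.05). The first covers the helix 23 loop and runs over 18S nucleotides 889 to 919. The next covers the helix 24 loop, from 989 to 1019, and the line after it covers helix 27 with the pseudoknot strand, from 1109 to 1142. The other lines show the surroundings of the 5 most reactive sites besides A1139, chosen by their measured values, each site in the middle of its line.
helix 23 loop: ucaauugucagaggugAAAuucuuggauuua
helix 24 loop: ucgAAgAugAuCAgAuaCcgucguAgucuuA
helix 27 and pseudoknot strand: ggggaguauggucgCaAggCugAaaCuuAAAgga
C1075: ugacccacucggCaccuuACgagaa
A734: ggcucuuggcgAAccaggacuuuua
C934: gaagacuAAcuACugcgAAAgcauu
A678: uucguguacuggAuuuccaacgggg
C786: aggcguauugcuCgAAuauauuAgc

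Depth differed widely among libraries and sets the precision of each value. Median effective depth over the domain was 206, 746, 3649 and 251 reads in H375A DMS libraries 1 to 4, and 353, 908, 3788 and 193 reads in the untreated H375A ones. In WT it was 211, 1272, 881 and 271 reads in the DMS libraries and 202, 815, 1277 and 288 reads in the untreated ones. A rate of 1% would have 95% Wilson bounds of 0.279% and 3.51% at the median depth of the first H375A DMS library and of 0.725% and 1.38% at that of the third library, for counting error only. The domain was covered less than the rest of 18S, with a ratio of median depths of 0.624 in H375A and 0.609 in WT with DMS (geometric means of 4, exact two-sided permutation p = 0.857). Without DMS the ratios were 0.604 in H375A and 0.590 in WT (exact permutation p = 0.943). Of the 225 A and C sites, 200 reached an effective depth of 100 in all 16 libraries and were analysed, and 25 did not.

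The mutation rate of the domain was higher with DMS mainly at A and C, in every DMS library, although the test by base did not pass adjustment. At its A sites the mean rate was 1.13% ± 0.15 in H375A DMS libraries and 0.458% ± 0.020 in untreated ones (SD, n = 4), a 2.47-fold difference. In WT it was 1.17% ± 0.17 with DMS and 0.431% ± 0.053 without, 2.71-fold. C sites read 0.743% ± 0.043 with DMS and 0.417% ± 0.079 without in H375A, 1.78-fold, and 0.716% ± 0.053 with DMS and 0.373% ± 0.029 without in WT, 1.92-fold. In each of these 4 comparisons all DMS libraries lay above all untreated ones. The exact two-sided permutation p of 0.0286 is the smallest that 4 libraries against 4 allow, and adjusted over 8 comparisons it was 0.0571, which did not pass. With these 4 A and C comparisons at the smallest p, adjustment can pass only if a G or U comparison reaches it too. The adjusted p therefore cannot decide whether A and C rose. With each DMS library paired to the untreated one of its number, the exact sign-flip permutation p was 0.125 in each (adjusted 0.143). That is the smallest p that 4 pairs allow. G and U served as comparison bases. G averaged 0.590% ± 0.009 with DMS and 0.515% ± 0.050 without in H375A, 1.14-fold, and 0.588% ± 0.025 with DMS and 0.516% ± 0.043 without in WT (exact permutation p = 0.0571 in both). U averaged 0.451% with DMS and 0.414% without in H375A (exact permutation p = 0.171) and 0.422% with DMS and 0.418% without in WT (exact permutation p = 0.829). Between genotypes, the DMS rate of the domain differed by a log2 H375A over WT of -0.047 at A, 0.054 at C, 0.0039 at G and 0.093 at U, within the spread of the libraries (exact permutation p of 0.286 to 0.943).

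Taken site by site with edgeR's quasi-likelihood test, 91 of the 200 sites of the domain were higher with DMS in H375A (45.5%), beside 49.3% of the 1153 sites tested over the SSU part. In WT 77 of 200 were higher (38.5%), beside 45.4%. In both genotypes 68 sites were called (34%), beside 40.8%, and no site of the domain was called lower with DMS, beside 0 of 1153 in H375A and 1 of 1153 (0.0867%) in WT. The counts in the 2 genotypes cannot be read as a difference between them. The depth of the third H375A library exceeds that of any WT library, and without it the H375A count was 63; without the second WT library the WT count was 56. With TMM scaling of the mutated reads in place of depth, which removes part of a rise shared by many sites, the counts were 19 in H375A and 15 in WT, and with a minimum depth of 200 they were 40 in H375A and 37 in WT. The test of the difference itself, the genotype by treatment interaction, called 0 of the 200 sites and 0 of 1153 (8 and 45 had an unadjusted p under 0.05).

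**Figure D1:**
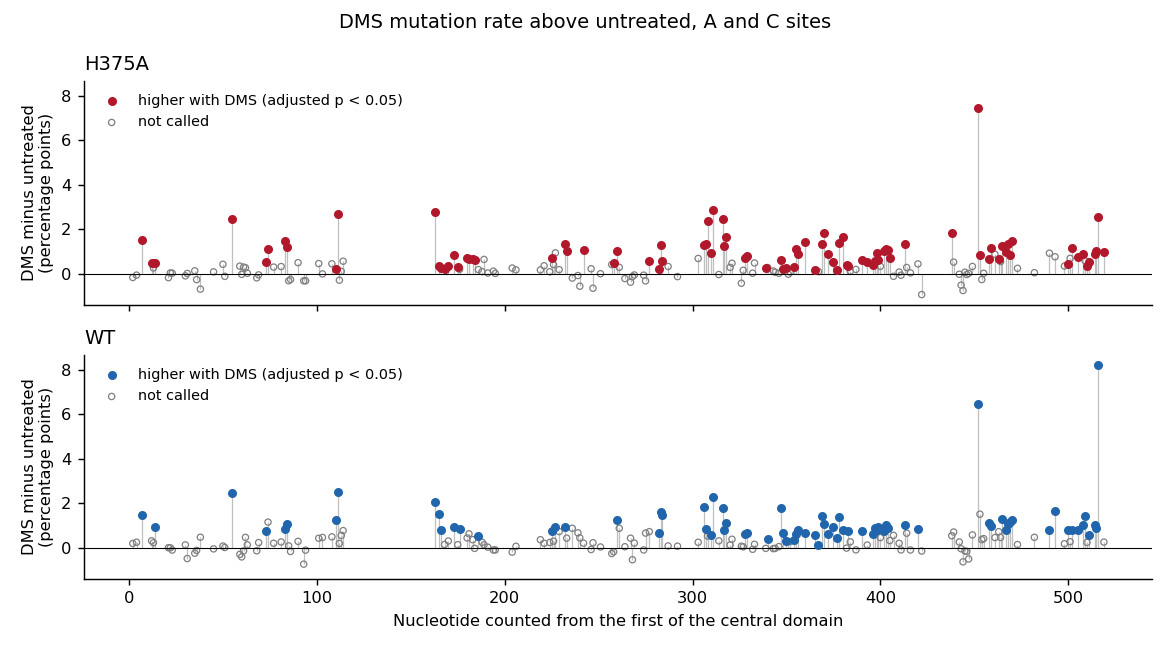
DMS rate minus untreated rate (percentage points, mean of 4 libraries minus mean of 4) at the 200 A and C sites with the depth, H375A above and WT below, along the domain counted from its first nucleotide. Filled points are sites called higher with DMS by edgeR, 91 in H375A and 77 in WT; 2 sites stand far above the rest in WT, A1139 and C1075, and C1075 alone in H375A.

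Reactive sites were unevenly spread along the domain. In nucleotides 624 to 923, 18 of 96 sites were called in both genotypes, against 50 of 104 in nucleotides 924 to 1142, a division chosen after the values were seen and given without a test. By 50-nt window, nucleotides 974 to 1023, which hold the helix 24 loop, had the most called sites, 18 of 26 in both genotypes. In nucleotides 724 to 773, 824 to 873 and 624 to 673 there were 2 each, of 8, 17 and 16 sites. The densest window was also the deepest, with library medians of 542 to 8968 reads, and the window from 724 had library medians of 83 to 3661 reads. The window from 624, with 2 of 16 called, had library medians of 419 to 5917 reads. The part of depth in these counts was not tested.

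The most reactive site over both genotypes was C1075, in the stretch printed above. It read 8.45%, 7.78%, 6.79% and 9.25% in the H375A DMS libraries, against 0.448%, 0.599%, 0.452% and 0.952% in the untreated ones. In the WT DMS libraries it read 7.34%, 6.31%, 7.24% and 7.80%, against 1.10%, 0.141%, 0.530% and 1.11% without DMS. All 8 DMS libraries lay far above all 8 untreated ones, and the genotypes overlapped (log2 H375A over WT 0.13, edgeR SE 0.19). The next of these sites, after A1139, were much lower. A734 averaged 3.55% ± 1.47 with DMS and 0.871% ± 0.797 without in H375A, and 3.17% ± 1.15 with DMS and 0.648% ± 0.460 without in WT (SD, n = 4). C934 averaged 3.15% ± 0.86 with DMS and 0.258% ± 0.181 without in H375A, and 2.48% ± 1.22 with DMS and 0.213% ± 0.189 without in WT. These sites vary among libraries by more than the genotypes differ. A678, C786, A939, A929 and A630 followed, with means of 1.45% to 3.30% in H375A and 1.75% to 2.83% in WT. All 8 of these sites, C1075 included, were called higher with DMS in both genotypes, and 7 of the 8 were predicted unpaired in a fold of the domain sequence. The 10th most reactive site, C931, passed in H375A and not in WT, with no called interaction, and is described with the genotype comparison.

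The named loops reacted with DMS in both genotypes. In the helix 23 loop (nucleotides 901 to 907), a hairpin end that faces the path of tRNA and mRNA in the mature subunit, its 3 A and C sites A905, A906 and A907 were all called in both genotypes. A906 read 0, 0.756%, 1.63% and 3.04% in the H375A DMS libraries against 0, 0.177%, 0.0480% and 0 in the untreated ones. In WT it read 1.63%, 1.46%, 1.93% and 1.37% with DMS and 0 in all 4 untreated libraries. The WT libraries did not overlap by treatment, and in H375A the first DMS library, among the shallowest, stood at 0 with the lowest untreated ones. In untreated WT libraries A906 had 0 mutated reads among 2218, and 3 counts over the group, taken as a limit, would be 0.135%. The pooled WT DMS rate, 1.63%, was 12.02 times that limit. A905, with 0 of 2248 reads and a limit of 0.133%, had a pooled WT DMS rate 5.38 times its limit. These ratios leave out the error of the DMS rate and the spread among libraries.

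In the helix 24 loop (nucleotides 1001 to 1007), the neighbour of the helix 23 loop on the platform, 3 of 5 sites were called in both genotypes, A1001, A1003 and C1006. A1001 averaged 1.72% ± 0.28 with DMS and 0.356% ± 0.107 without in H375A, and 1.73% ± 0.48 with DMS and 0.327% ± 0.116 without in WT (SD, n = 4). A1005 passed in H375A and not in WT, with no called interaction, and C1007 in neither. The loop of helix 27 (nucleotides 1121 to 1127) had 2 of 4 sites called in both genotypes, C1123 and A1125, and 2 called in neither. A1125 averaged 1.81% ± 0.21 with DMS and 0.649% ± 0.299 without in H375A, and 1.15% ± 0.82 with DMS and 0.327% ± 0.326 without in WT. None of the 10 sites of these 3 loops that were tested between genotypes was called, beside 0.769% over the domain and 3.59% over the SSU part.

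In the last 10 nucleotides of the domain, taken to include the strand of the central pseudoknot, 6 of 6 A and C sites were called higher with DMS in H375A. In WT 4 of 6 were called. Which of the 6 sites belong to that strand was not determined here, so these are counts for the 10 nucleotides. The 4 were C1134, A1137, A1138 and A1139. A1138 read 1.10%, 1.73%, 1.19% and 1.35% with DMS in H375A against 0.588%, 0.496%, 0.168% and 0 without. In WT it read 1.36%, 1.33%, 0.761% and 1.45% with DMS and 0, 0.427%, 0.154% and 0.820% without. Its DMS and untreated libraries were apart in H375A and overlapped in WT, and the genotypes overlapped. A1133 and A1142 were the 2 called in H375A alone (edgeR adjusted p for WT 0.278 and 0.140), and their interaction terms were not called.

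Between genotypes, 1 of the 130 tested sites of the domain differed, A1139, which was lower in H375A. That is 0.769% of the tested sites of the domain, beside 3.59% of the 725 sites tested over the SSU part. None was higher in H375A, and 11 had an unadjusted p under 0.05, of 87 over the SSU part. The test used the 8 DMS libraries, each scaled by its median site, and sites with a DMS rate at least 0.2 percentage points above the untreated rate. This filter left out 70 of the 200 sites with the depth. Both of its rates were means over the 2 genotypes, so a site could enter through 1 genotype alone, as A807 did through H375A. The median log2 H375A over WT of the 130 sites was 0.083, beside 0.020 over all 725, and 110 of the 130 differed by less than 1.5-fold. The median SE of a site's log2 change was 0.39, and a site that was not called is not shown to be equal. At 7 of the 130 sites (5.38%) the genotypes did not overlap, beside 5.79% over the SSU part: A807, A809, C931, A1003, C1022, C1082 and A1139.

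**Figure D2:**
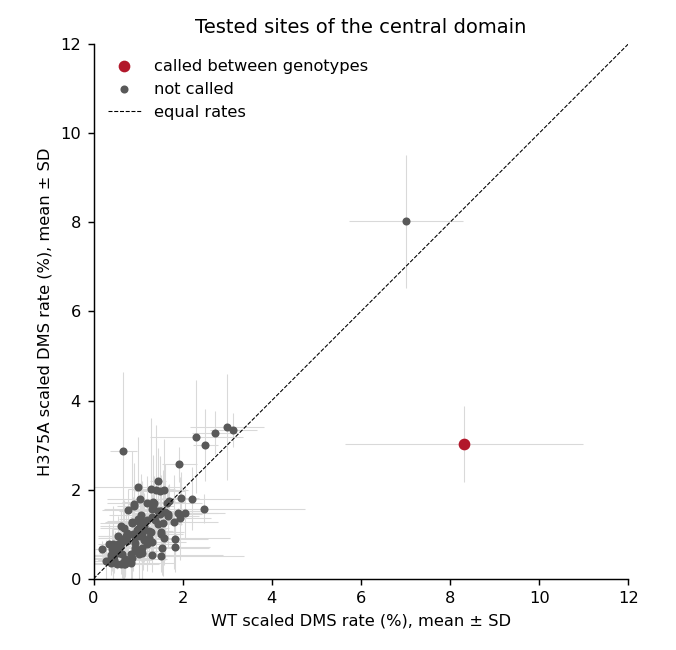
Scaled DMS rate (%, mean ± SD of 4 libraries, error bars clipped at 0) in H375A against WT at the 130 tested sites of the domain, with the line of equal rates dashed. C1075 lies near the line, and A1139, at 3.01% in H375A and 8.32% in WT, is the 1 site called between genotypes.

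A1139 read 3.19%, 3.44%, 3.54% and 1.92% in the H375A DMS libraries, and 5.22%, 12.6%, 10.8% and 6.55% in the WT DMS libraries. Without DMS it read 0, 0.555%, 0.216% and 1.2% in H375A, and 1.29%, 0.483%, 0.516% and 0 in WT. Every H375A DMS library was below every WT DMS library, the untreated libraries overlapped, and within WT libraries 2 and 3 were higher than the other 2. Scaled to the median site, the rate was 3.01% ± 0.85 in H375A and 8.32% ± 2.67 in WT (SD, n = 4), at depths of 188 to 3983 reads over the 16 libraries. The log2 H375A over WT was -1.57 with an SE of 0.19 (edgeR adjusted p = 1.22e-08). The site was reactive in both genotypes, by a log2 DMS over untreated of 3.21 in H375A and 4.24 in WT. Its call remained with any 1 library left out (log2 of -1.68 to -1.37). The adjusted p was much higher with TMM in place of depth (edgeR, 0.0147) and with a quasi-binomial model (0.0438), where the call remained. It was lost with limma on log2 rates (log2 -1.42, limma adjusted p = 0.241), which called 0 of the 725 sites of the SSU part. The call was also lost in the interaction over all 16 libraries (log2 -1.02, SE 0.65, edgeR adjusted p = 0.998). There the few mutated reads of the untreated libraries also enter, and why the call was lost was not tested.

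None of the neighbours of A1139 in the domain was called. Among the other tested sites of the domain within 10 nucleotides of it, the log2 H375A over WT was 0.13 at A1131, -0.79 at A1132, -0.13 at A1133, -0.083 at C1134, -0.041 at A1137, 0.21 at A1138 and 0.25 at A1142. A1132 had the lowest unadjusted p among them (0.0338, edgeR adjusted p = 0.366), with means of 1.08% ± 0.44 in H375A and 1.60% ± 0.37 in WT, whose libraries overlapped. The other strand of the pseudoknot lies within the first 30 nucleotides of 18S. Which of the 9 tested sites there belong to that strand, if any, was not determined here. Of these 9 sites 1 was called, beside 3.59% of the 725 over the SSU part. That site was C17, which was higher in H375A. It read 2.60%, 2.90%, 1.83% and 2.71% in the H375A DMS libraries and 1.08%, 0.982%, 1.16% and 0.808% in the WT ones, with no overlap (log2 1.17, SE 0.24, edgeR adjusted p = 0.000622). C17 and A1139 are not taken as pairing partners, and the assay does not measure which bases pair.

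**Figure D3:**
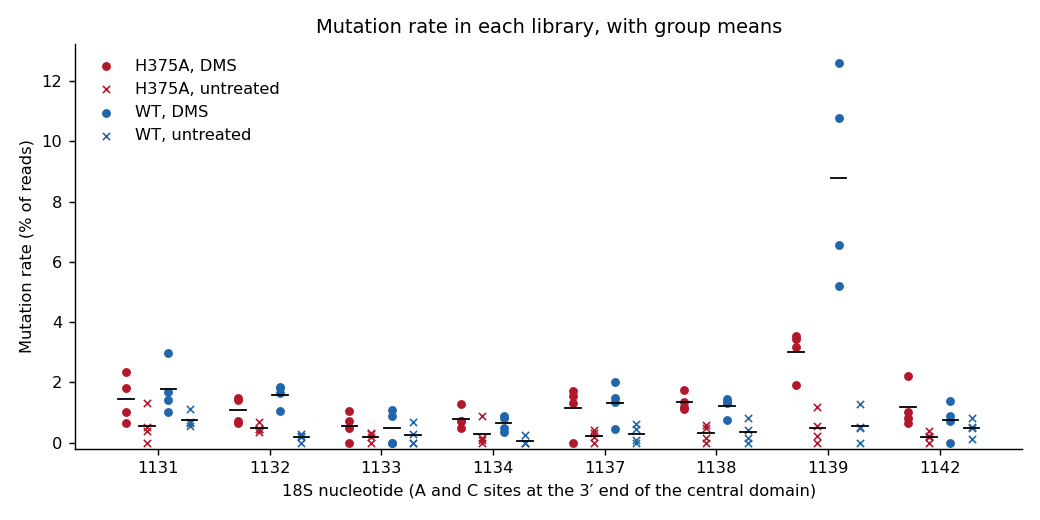
Mutation rate (% of reads) in each of the 16 libraries at the A and C sites of the last 12 nucleotides of the domain, with 18S nucleotides on the axis, DMS as circles, untreated as crosses and group means as bars. Only at A1139 do the H375A and WT DMS libraries stand apart.

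Measures of library make-up are given beside A1139. The modified U1191 in helix 31, outside the domain, carries a mark completed late in 18S maturation that is misread without DMS, and its untreated rate was 0.256%, 3.39%, 4.17% and 1.31% in H375A against 1.73%, 11.6%, 11.02% and 8.97% in WT (exact permutation p = 0.0857). The median depth of 25S over that of 18S was 0.302 ± 0.015 in H375A DMS libraries and 0.455 ± 0.082 in WT ones, with no overlap (exact permutation p = 0.0286, not adjusted). In the untreated libraries it was 0.307 ± 0.014 in H375A and 0.442 ± 0.127 in WT, where 1 WT library, at 0.309, lay within the H375A range (exact permutation p = 0.114). The means of both measures were lower in H375A, as at A1139, and their part in that difference was not tested.

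The sites with the next lowest p-values did not pass. A970 read 0.282%, 1.16%, 1.24% and 1.09% in the H375A DMS libraries and 0.746%, 3.06%, 1.80% and 2.25% in the WT ones, so 3 WT libraries lay above all of H375A (log2 -0.94, SE 0.29, edgeR adjusted p = 0.0507). It passed without the first WT library (edgeR adjusted p = 0.0135) and its p was far higher without the second (0.722). C931 ran the other way, with 4.39%, 1.57%, 1.40% and 3.86% in H375A and 0.806%, 1.03%, 0.462% and 0.433% in WT. Its genotypes did not overlap, but the H375A libraries spread widely (log2 1.22, SE 0.42, edgeR adjusted p = 0.106), and without the third H375A library it passed (log2 1.87, edgeR adjusted p = 0.0402). A983, 0.405%, 1.79%, 1.88% and 2.998% in H375A against 0.709%, 1.21%, 1.06% and 0.824% in WT, overlapped between genotypes (log2 0.83, SE 0.29, edgeR adjusted p = 0.112) and passed without the first H375A library (log2 0.93). A807 read 0.386%, 0.855%, 0.729% and 0.837% in H375A and 0, 0.308%, 0.136% and 0.382% in WT, the H375A values just above the WT ones (log2 1.66, SE 0.70, edgeR adjusted p = 0.298). In WT, A807 was not above its untreated rate (0.206% with DMS and 0.232% without). It met the filter, which takes means over both genotypes, through H375A alone, so its low p and lack of overlap partly follow from the filter. The others among the 10 sites of lowest p were A978, A1003 and A1027, with log2 values of 0.70, 0.58 and 0.59 and edgeR adjusted p of 0.366 or more, and A1132 and C1022, with log2 values of -0.79 and -0.57. C1022 read 0.733%, 0.947%, 0.929% and 0.727% in H375A and 1.39%, 1.46%, 1.28% and 1.23% in WT, tight groups without overlap whose untreated rates were also lower in H375A (0.230% ± 0.054) than in WT (0.398% ± 0.197). In the interaction its sign turned (log2 0.39, not called), as did that of A1027 (-0.59), and why was not tested.

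Neither the domain as a whole nor any of its 50-nt windows passed the test between genotypes. Averaged over its 130 tested sites, the scaled DMS rate was 1.22% ± 0.05 in H375A and 1.22% ± 0.05 in WT (SD, n = 4; log2 0.0011, SE 0.041, limma adjusted p over 6 parts 0.979; exact permutation p = 1). That log2 value and its sign are relative to the median site of the SSU part, and with scaling from 25S sites it was -0.13 (limma adjusted p = 0.253). Among the 11 windows of 50 nt, the lowest limma adjusted p was 0.301, for nucleotides 924 to 973, which hold C931, C934 and A970. There the mean scaled rate was 1.31% ± 0.20 in H375A and 1.04% ± 0.17 in WT (log2 0.34, SE 0.14). The last window, from 1124, runs past the end of the domain and averaged 1.25% ± 0.11 in H375A and 1.40% ± 0.22 in WT (log2 -0.15, SE 0.12, limma adjusted p = 0.549).

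A predicted secondary structure was set beside the rates as a description. The sequence of the domain alone was folded at 30 °C by free energy, which ignores proteins, snoRNAs, pseudoknots and the rest of the pre-rRNA, and left 175 nucleotides unpaired and 344 paired. A sites predicted unpaired (57) averaged 0.934 ± 0.257 percentage points above untreated in H375A and 0.888 ± 0.159 in WT (SD, n = 4). A sites predicted paired (59) averaged 0.422 ± 0.084 in H375A and 0.593 ± 0.099 in WT. Without A1139, which was predicted paired, the means over the remaining 58 were 0.386 in H375A and 0.462 in WT. By these means, C sites parted further. They averaged 1.08 ± 0.13 in H375A and 1.02 ± 0.16 in WT over 21 predicted unpaired. Over 63 predicted paired they averaged 0.0754 ± 0.0874 in H375A and 0.117 ± 0.029 in WT. The unpaired C sites include C1075, the most reactive site, and its part in their means was not tested. By medians over sites, C parted further than A in percentage points in WT but not in H375A. The H375A medians were 0.908 at unpaired and 0.290 at paired A, and 0.503 at unpaired and 0.0472 at paired C. Sites called in both genotypes were 35 of 57 among unpaired A and 17 of 59 among paired A, and 11 of 21 among unpaired C and 5 of 63 among paired C. Every library had a higher mean at unpaired than at paired sites of the same base. A630, A970 and A1139 are examples of reactive sites that this fold predicted as paired.

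**Figure D4:**
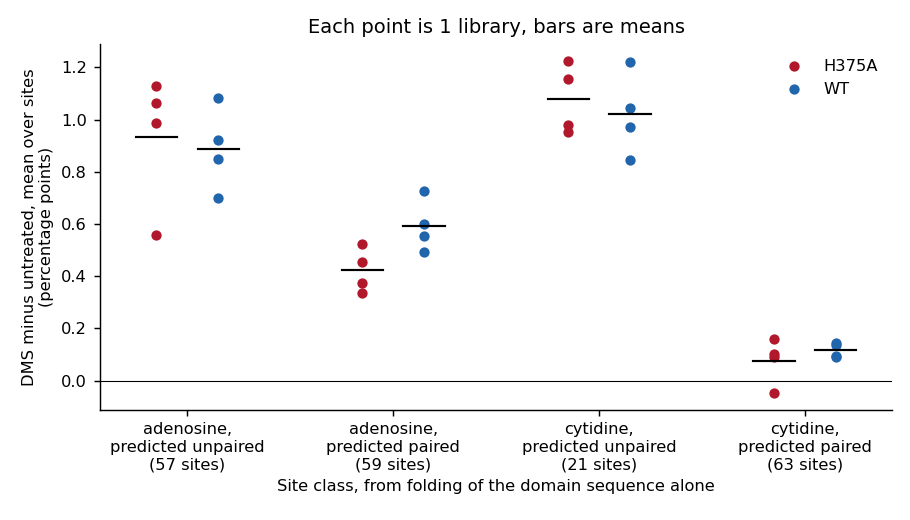
DMS minus untreated rate (percentage points, mean over sites) in each DMS library, H375A left and WT right in each class, for adenosines and cytidines predicted unpaired or paired in a fold of the domain alone; bars are means of 4. Predicted unpaired cytidines lie near 1 in both genotypes and predicted paired ones near 0.1.

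Set against the other parts of the SSU pre-rRNA, the domain was among the less reactive. Its background-subtracted DMS rate, the mean of the A mean and the C mean, was 0.520 ± 0.070 percentage points over the 8 DMS libraries, of both genotypes (SD). It was lower than that of the 3′ minor domain (0.772 ± 0.099, log2 -0.57) and the 3′ major domain (0.691 ± 0.111, log2 -0.40), in 8 of 8 libraries each (exact sign-flip permutation test over libraries, two-sided, adjusted p = 0.0130). It was also lower than that of the 5′ external transcribed spacer (ETS, 0.618 ± 0.061, log2 -0.26, 8 of 8 libraries, exact permutation adjusted p = 0.0130) and of the 5′ domain (0.591 ± 0.099, log2 -0.18, 7 of 8 libraries, exact permutation adjusted p = 0.0391). The first internal transcribed spacer (ITS1) up to A2 averaged 0.442 ± 0.079 (log2 0.24, exact permutation adjusted p = 0.0938). With 6 libraries the 4 lower values all passed without the replicate 1 libraries (exact permutation adjusted p = 0.0391), and none passed without those of replicate 2, 3 or 4 (0.0521 to 0.156). The size and for some parts the direction depended on the statistic. With the median over sites the domain was higher than the 5′ ETS (log2 0.43, exact permutation adjusted p = 0.0488), and at A sites alone the differences from the 5′ ETS (log2 -0.043) and the 5′ domain (log2 -0.040) did not pass. At C sites alone the domain was not lower than the 3′ minor domain (log2 0.23, exact permutation adjusted p = 0.438).

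**Figure D5:**
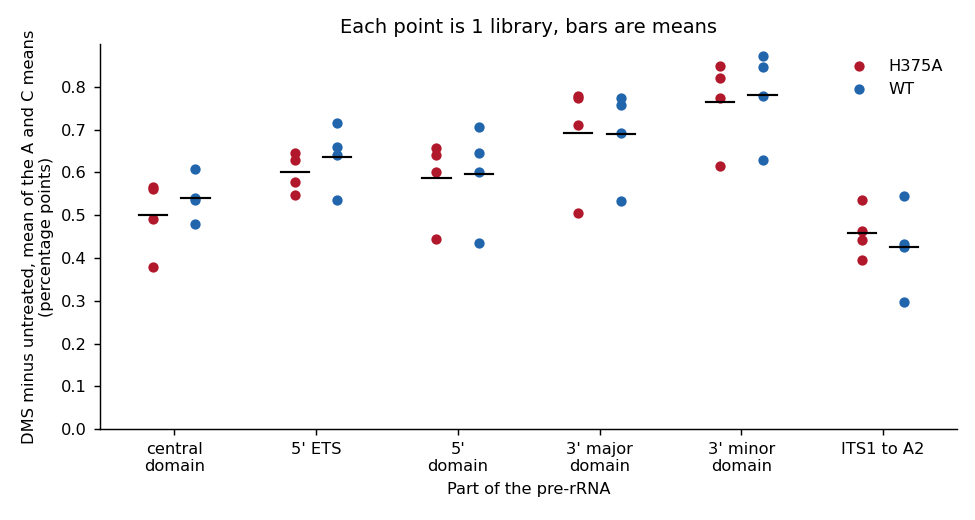
Background-subtracted DMS rate (percentage points, mean of the A mean and the C mean) of the central domain and 5 other parts of the pre-rRNA in each DMS library, H375A left and WT right, with bars at the means of 4. The central domain lies below the 3′ major and 3′ minor domains in each library, and its 2 genotypes overlap.

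Without DMS, some sites of the domain were misread often, and no difference between genotypes was detected in these rates. Of the 27 sites of any base with enough mutated reads in the untreated libraries, edgeR called 0 between genotypes, as it did over the 554 of the SSU part (0%; 1 and 8 had an unadjusted p under 0.05), and DESeq2 called 0. The highest was G1053, which read 5.33%, 5.89%, 7.21% and 6.61% in untreated H375A libraries and 10.1%, 5.54%, 8.26% and 5.53% in untreated WT ones. A661 followed, and with DMS its rate was 3.67% ± 0.56 in H375A and 3.80% ± 0.92 in WT (SD, n = 4), no higher than without DMS by the test in either genotype. Without DMS it read 3.74%, 3.58%, 4.59% and 5.53% in H375A and 2.33%, 3.72%, 3.85% and 3.42% in WT. A1061 averaged 3.38% ± 0.47 with DMS and 1.56% ± 0.30 without in H375A, and 3.22% ± 0.34 with DMS and 2.68% ± 0.78 without in WT, and it was called higher with DMS in H375A and not in WT, with no called interaction. At the other high A and C sites, A737, C1045 and A1084, untreated means were 1.02% to 1.57% in H375A and 0.672% to 1.60% in WT, and none was called higher with DMS in both genotypes.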

How the data were processed

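The authors deposited, per library, counts for each nucleotide of a 35S pre-rRNA sequence (mutated reads, read depth and effective depth), and, per the file headers, a mutation rate as a fraction, which equalled mutated reads over effective depth within 5.0e-07 and had no background subtracted. The aligner, mutation caller and read filters are not given in the sources used here; they and the handling of neighbouring mutations act on all rates. The labels do not say whether DMS was applied before or after purification. Without molecular identifiers, reads are not independent molecules. 18S was located by its length in the RefSeq annotation of assembly R64, and the 3′ major and minor border by general knowledge, chosen so that the tested sites matched an earlier count.

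Mutated reads were tested with edgeR 4.0.16 (quasi-likelihood, R 4.3.3), with the log of effective depth as offset and, between genotypes, a median-ratio scaling factor (0.847 to 1.13) from 594 sites of the SSU part. P-values were adjusted by Benjamini-Hochberg over all sites tested in the SSU part, and a site was called at an adjusted p under 0.05. Between genotypes, sites needed an effective depth of 100 in all 16 libraries, a DMS rate 0.2 percentage points above untreated and an untreated rate under 5%. These rates were means over both genotypes. The DMS test needed 10 mutated reads in all, and the untreated test 10 on average. Region means used limma 3.58.1. Values by base, by part and for coverage used exact permutation tests. The domain was folded with ViennaRNA 2.7.2. The fits were tested on simulated counts. Named sites were those called between genotypes and their neighbours within 10 nt, the 10 of lowest p and the 10 most reactive. Also named were the 5 highest untreated A and C sites and the sites of the 3 loops and of the last 10 nucleotides. G1053, the sites without overlap, C17 and U1191 were added after their values were seen. The members and lists were chosen with earlier results of these data known, and the fold, the division at nucleotide 924 and the printed stretches with results in view. Each DMS library was stated to have its own untreated control. Between genotypes the correlation of same-numbered libraries' deviations was 0.0039 to 0.172. It was above the highest with another number for libraries 1 (0.164 against 0.0313) and 3 (0.172 against 0.161). It was below it for libraries 2 (0.0689 against 0.138) and 4 (0.0039 against 0.0283). Replicate 1 had the lowest scaling factor in both genotypes (0.864 in H375A and 0.847 in WT). Numbers were not taken to pair libraries in the main test, and a shared replicate effect is not excluded. Alternatives were other depth minimums, filters, scalings, DESeq2 1.42.0, limma, a quasi-binomial model, the replicate block and each library left out; leaving out the replicate 1 libraries together was added after seeing the data.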

Additional observations from a re-analysis of the deposited data

Results flagged for a closer look

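Dixon's test was applied to 102 groups of 4 libraries of named sites and domain values, and 4 gaps passed its 95% critical value of 0.829, where chance gives about 5.1. At A970, 1 H375A DMS library read 0.282% and the other 3 read 1.09% to 1.24% (gap over range 0.839). At A1003, 1 WT DMS library read 0.300% and the other 3 read 1.17% to 1.24% (0.924). At A1061, 1 H375A DMS library read 4.08% and the other 3 read 3.08% to 3.24% (0.834). For the mean rate at U of the domain, 1 untreated WT library read 0.468% and the other 3 read 0.397% to 0.408% (0.839).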

How the results depend on the processing

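The number of domain sites called between genotypes, 1 (A1139), was 2 with a minimum depth of 50 or scaling from 25S sites, 3 with both replicate 1 libraries left out, 0 with limma, with the interaction or with a minimum depth of 200, which drops A1139 for depth, and 1 to 2 with any 1 library left out. A1139 had log2 values of -1.42 with limma and -1.02 in the interaction, and C1022 and A1027 turned to 0.39 and -0.59 in the interaction; why was not tested. With a replicate block 2 sites were called, the second being C931 (edgeR adjusted p = 0.0371), and the block moved sites higher with DMS to 91 in H375A and 78 in WT and changed no other call of the domain. Those counts were 19 in H375A and 15 in WT with TMM scaling of mutated reads in place of depth, which removes part of a shared rise, and 40 and 37 with a minimum depth of 200, where fewer sites were tested. The mean log2 between genotypes, 0.0011, was -0.026 without scaling, -0.13 with scaling from 25S sites, -0.013 after background subtraction and -0.028 to 0.028 with 1 library left out, and never passed. Adjusted over 8 comparisons, base rates passed with the median over sites and with a minimum depth of 50. With the median, log2 DMS over untreated was 1.66 for A and 0.49 for C in H375A. In WT it was 1.92 for A, 0.69 for C and 0.36 for U. With a minimum depth of 50 it was 1.27 for A and 0.84 for C in H375A. In WT it was then 1.44 for A, 0.97 for C and 0.17 for G. In both settings A and C could pass only because U or G in WT passed too. WT U ran from -0.00066 to 0.053 with 1 replicate left out. Against other parts, the median over sites gave 0.43 for the 5′ ETS, -0.17 for the 3′ minor domain and 0.63 for ITS1, A sites alone -0.043 for the 5′ ETS and -0.040 for the 5′ domain, and C sites alone 0.23 for the 3′ minor domain. The 4 lower values all passed without replicate 1 (exact permutation adjusted p = 0.0391) and none passed without replicate 2, 3 or 4 (0.0521 to 0.156, over 6 libraries). The smallest p that 6 libraries allow limits this test, so the losses cannot show a dependence on particular replicates. With 1 replicate left out the log2 values were -0.30 to -0.23 for the 5′ ETS and -0.22 to -0.10 for the 5′ domain. They were -0.44 to -0.34 for the 3′ major and -0.61 to -0.51 for the 3′ minor domain. The log2 difference of relative depth ran from -0.021 to 0.103 with DMS and from -0.021 to 0.107 without. Shallow libraries limit single sites most.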
